A study of Mus musculus with 2 samples.

Results

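Long intergenic RNAs are transcripts that lie between protein-coding genes and carry no long reading frame. On the array used here they were read as regions of the mouse genome, and the members of this set were all probes named by a region and a strand letter in the array's own annotation, in build mm9. This gave 3540 regions. A region read on 1 strand counts as 1 region strand and a region read on both as 2, which made 4607 region strands of the 37878 features on the array, and 16179 of its 55675 probes with a value on both arrays. The letters F and R are taken as the forward and reverse strand of the build, which the files do not spell out. Of the regions, 1067 were read on both strands, 1251 on F and 1222 on R.

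The study compared male C57Bl/6 N mice that carry the gene for interleukin-18 (Il18+/+) with mice that lack it (Il18-/-), both at 12 weeks of age. Interleukin-18 is a cytokine that immune and other cells release after cleavage by an inflammatory caspase. Total RNA of 7 mice was pooled for each genotype, labelled with Cy3 and hybridised to 1 array, so each genotype has 1 sample. The tissue is labelled hippocampus, while the description of the RNA extraction names prefrontal cortex. No other treatment or allele is given in the labels. Nothing below could be tested, since a pool has no spread of its own, and every value describes these 2 arrays.

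Many long intergenic RNAs are made at low level and in few cell types, and brain is among the tissues richest in them. Some act where they are made, at or near their own gene, and others have no known role. Because the DNA of a region can be transcribed from either strand, probes for both strands can separate an RNA from its antisense partner. The probes do not show where an RNA begins or ends, so 1 region can hold several transcripts and 1 transcript can span several regions.

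Levels are log2 signals minus the 75th percentile of each array, so that 25% of the spots read above 0. The percentile stood at 692.0 in Il18+/+ and at 706.9 in Il18-/- as intensity, and 67.2% and 65.4% of all probes were well above background in the scanner software's sense. The number of arrays limits the precision. Among 315 probes printed 10 times and measured on both arrays, the difference between genotypes had a median SD of 0.08 over the spots. The 95th percentile of this SD was 0.41. Both values cover the printing and scanning only. The probe for Il18 read 1.38 in Il18+/+ and -0.11 in Il18-/-. Whether it lies inside the deleted stretch is not given in the sources used here, so it is no check of the genotype. All 11 hippocampal markers were measured on both arrays, and so were 6 of 6 neocortical markers on the array, which does not settle the tissue. Beside the regions, all 8 choroid plexus markers were at least 1.5-fold lower in Il18-/-, their summed signal going from 368 to 186 times the 75th percentile. All 5 measured medial habenula markers were at least 1.5-fold higher, and the summed signal of the 6 on the array went from 1.45 to 6.87. All 6 measured liver markers were higher too, and the 7 on the array went from 0.480 to 3.97 in sum. In pooled tissue, fewer cells of a type and less RNA per cell cannot be told apart, and the part of these cells in the region values was not tested.

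The regions came in a wide range of sizes. The median length was 7315.5 bases, the shortest was 62 bases and the longest 7128487 bases. Regions read on both strands were longer, with a median of 17901 bases against 2176 bases for regions read on 1 strand. A strand held between 1 and 10 probes with a median of 3, and 690 strands rested on 1 probe. Start and end lay a whole multiple of 25 bases apart in 68.2% of the regions on both strands and in 12.1% of those on 1 strand, a property noticed in the names and not used further. The shortest region named, chr5:113769776-113769837 (F), was not above background on either array, and neither was the longest, chr7:39351858-46480344 (R), which rested on 1 probe. Regions are not independent of each other, since many overlap.

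Most region strands gave a signal, but a dim one. At least 1 probe was well above background for 3606 strands (78.3%) in Il18+/+ and for 3492 (75.8%) in Il18-/-, and for 3418 (74.2%) on both arrays. Detection on the Il18+/+ array alone was seen for 188 strands and on the Il18-/- array alone for 74, while 927 were detected on neither. The 188 are 4.08% of the strands and the 74 are 1.61%, against 2.77% and 1.28% over all features. Per probe the share was lower, 53.4% and 50.8%, against 72.9% and 71.4% for the other probes of the array. The share of strands detected in Il18+/+ was 57.2% with 1 probe and 97.9% with 10, so the count of detected strands also follows how many probes a strand was given. With 1 probe each, 57.2% of region strands and 68.8% of other features were detected in Il18+/+, and 53.3% and 67.3% in Il18-/-.

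The median level of a region strand was -5.02 in Il18+/+ and -5.09 in Il18-/-, near the lowest signal that counted as well above background, -5.56 and -5.50. RefSeq non-coding RNAs stood at -4.68 and -4.78, and RefSeq mRNAs at -1.40 and -1.45. A level above 0 on both arrays was reached by 198 region strands (4.30%), against 35.6% of the mRNAs. These medians set different probes side by side and describe signal, not RNA molecules.

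**Figure D1:**
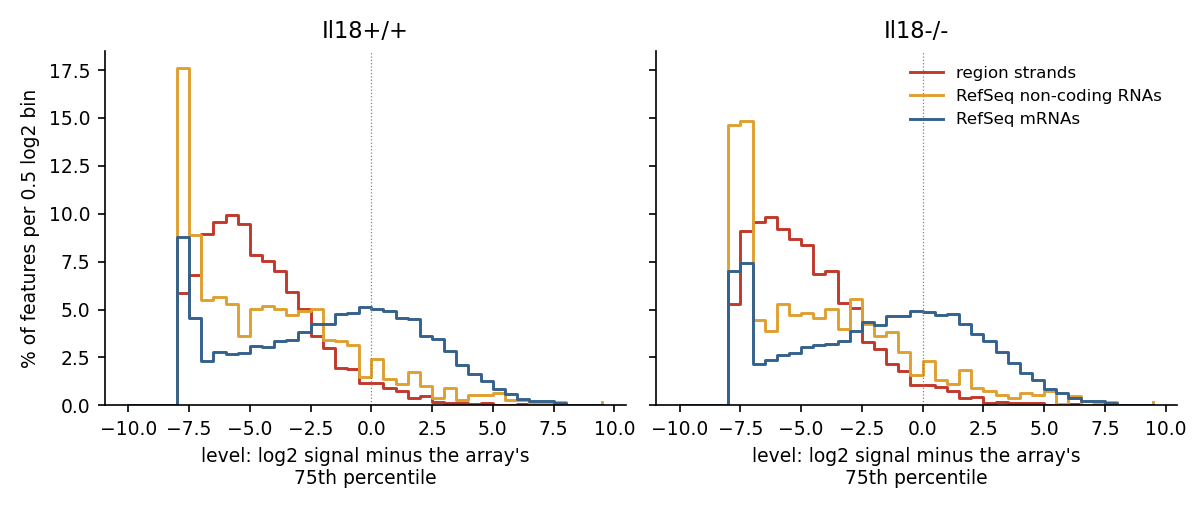
Share of features in each 0.5 log2 bin of level (x axis, log2 signal minus the array's 75th percentile) for region strands, RefSeq non-coding RNAs and RefSeq mRNAs on each array. Region strands are most frequent in the bin from -6.0 in Il18+/+ (9.92%) and from -6.5 in Il18-/- (9.83%). These bins lie below their medians of -5.02 and -5.09, and few region strands pass 0. The tallest bin of the mRNAs is at the dim end, from -8.0 in Il18+/+ (8.79%) and from -7.5 in Il18-/- (7.44%). The mRNAs have a second, broad rise around 0.

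A small group of region strands read far above 0. The highest was chr19:5801802-5802597 (R), with 7.60 in Il18+/+ and 7.34 in Il18-/-. Its 3 probes read 6.72, 7.47 and 8.61 in Il18+/+, and were lower in Il18-/- by 0.21, 0.36 and 0.21. A second bright region lies close beside it on the same strand, chr19:5798135-5800557 (R), with 5.28 and 4.73. Its 3 probes were all lower in Il18-/-, by 0.51 to 0.60 on the log2 scale, 1.46-fold in the mean. In the longer region that spans both, chr19:5771425-5848475, the F strand read -2.26 and -2.31 over 10 probes and the R strand -2.20 and -2.81 over 2. Of these 2 R probes, the one above background on both arrays read 1.77 and 1.79. Nearby, chr19:5795690-5797464 (F) read 0.85 and 1.15, and chr19:5834117-5835940 (R) -2.90 and -3.03. The other regions here were thus dimmer than the brightest, on F and on R.

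The other strands of high level were spread over the genome. chr7:108209996-108216032 (R) read 6.90 and 6.72 on its 1 probe. chr11:22681800-22707775 (R) read 6.43 and 6.53, also on 1 probe. chr2:156213798-156216885 (R) read 6.39 and 6.49, and its 3 probes agreed closely, between 6.08 and 6.77 in Il18+/+. Next came chr17:17481706-17482457 (R) with 6.12 and 6.22 over 3 probes. chr17:48068261-48087905 (F) read 6.12 and 6.14 on 1 probe. chr4:33364774-33364898 (R) read 5.95 and 6.08 on 1 probe. These 3 lie too close together to be put in order, since probes of 1 strand usually differ by more than that. The last of the 10 were chr12:119825125-119850750 (F), with 5.68 and 5.98, and chr4:56013597-56020622 (F), with 4.97 and 4.95, both on 1 probe. In the mean over probes none of these 10 differed by 1.5-fold between genotypes as reported. chr19:5798135-5800557 (R), at -0.55, passed it with quantile (-0.63), loess (-0.63) and spike-in scaling (-0.86) and by its brightest probe (-0.60).

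For comparison, 21 of 36 long non-coding RNA genes listed by name were on the array by accession, and 19 were measured on both. The regions were not tied to genes, so a listed gene and a region above may be read from the same RNA. The levels below are those of the probes named by the gene only. Peg13, an imprinted brain RNA, read 5.35 and 5.40. Pantr1, a neural RNA near a POU-domain gene, read 4.86 and 5.08. Meg3, an imprinted RNA of the maternal chromosome, read 4.53 in Il18+/+ and 4.24 in Il18-/-, and Mirg, a host of microRNAs from the same imprinted domain, read 3.12 and 2.75. Each of these 4 was well above background on both arrays. Neat1, the scaffold of nuclear paraspeckles, read 2.94 and 2.72, and Malat1, a nuclear speckle RNA, read 1.76 and 1.79. Xist, the RNA that silences an X chromosome in females, was not well above background on either array of these male mice. Of the 19 measured genes, 0 passed 1.5-fold in either direction, and their median difference was 0.05, beside 0.01 over all measured features.

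Whether a region is read mainly on 1 strand was asked in the 1067 regions with probes for both. Both strands were detected on both arrays in 717 regions (67.2%). F alone was detected on both arrays, with R on neither, in 99 regions (9.28%), and R alone in 114 (10.7%), while in 48 regions neither strand was detected on either array. The other 89 were detected on some arrays and not others. In the 717 regions the strands differed by a median of 1.58 log2 units in Il18+/+ and 1.59 in Il18-/-. They stood at least 2-fold apart on both arrays, with the same strand higher, in 448 regions (62.5%). In 0 regions did the strands trade places at that size. The 2 arrays carry the same probes, so this agreement is no separate support for a difference between strands.

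Probes of a single strand also differed from each other. Pairs of measured probes on the same strand of these regions were themselves a median of 1.28 apart, and 58.2% of them were at least 2-fold apart. Pairs on opposite strands were a median of 1.92 apart, with 69.8% at 2-fold or more. These pairs set single probes against each other, whereas the 62.5% sets strand means against each other on both arrays, so only the 2 kinds of pair compare like with like. With normexp the same-strand pairs had a median of 0.78 and 41.8% at 2-fold, and the opposite-strand pairs 1.19 and 55.3%. With raw signal the shares were 46.6% and 59.5%. The order of the 2 kinds of pair was thus kept, while the share of regions at 2-fold moved from 62.5% to 35.3% with normexp and 40.9% with raw signal.

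The levels of F and R in a region followed each other weakly, with Pearson's r of 0.26 and Spearman's rho of 0.23 over the 1067 regions, which share the arrays and the probe design. Another view takes the 570 regions with at least 3 probes on each strand and both strands detected. In 52 of them (9.12%) every probe of 1 strand was brighter than every probe of the other. The share that probes in random order would give at these probe numbers was not computed. The 9.12% is therefore not read as a separation of strands. R was the brighter strand in 35 of the 52 regions and F in 17. R also led among the larger differences, being at least 4-fold higher in 163 of the 717 regions against 121 for F. In regions read on both strands 56.6% of R probes and 49.4% of F probes were well above background in Il18+/+. In regions read on 1 strand the order was the other way, 52.6% for R and 55.6% for F.

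**Figure D2:**
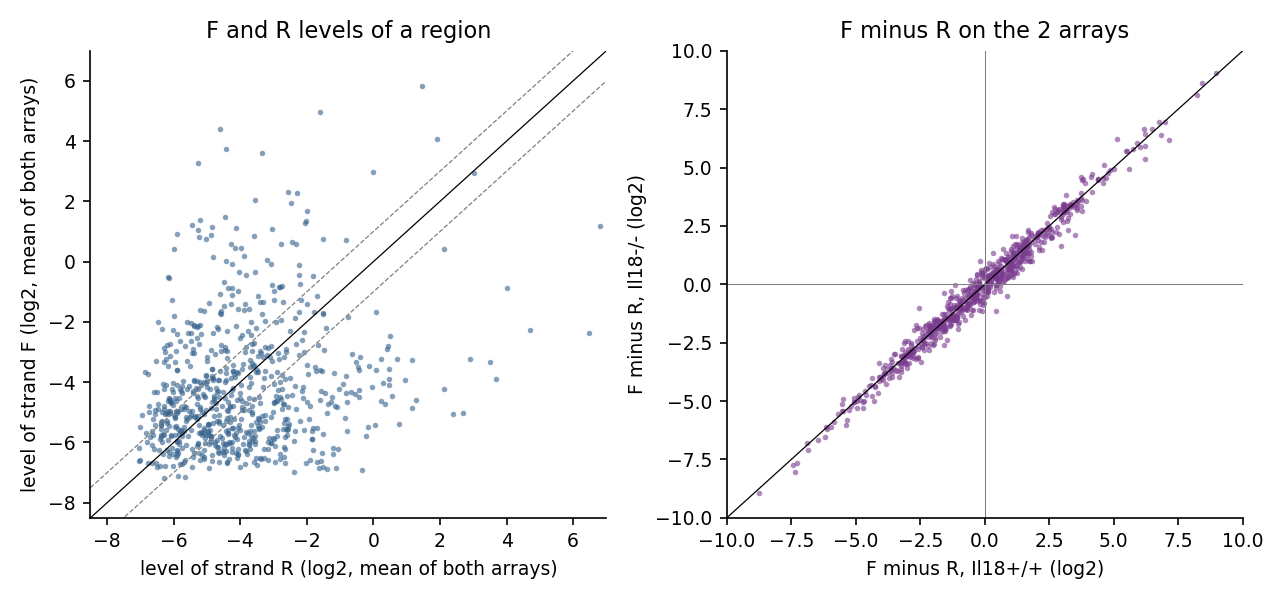
Left, level of strand F against level of strand R (log2, mean of both arrays) for the 717 regions with both strands detected, with the line of equality and dashed lines at 2-fold. Right, F minus R in Il18+/+ against Il18-/- for the same regions. On the left the points fill both sides of the line, and on the right they lie along it. The same strand was higher on both arrays, which carry the same probes, in 677 of 717 regions (94.4%).

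The regions with the largest strand difference were ranked without chromosome 18, by the mean of both arrays. A large difference on each array was thus favoured by the ranking. chr4:141527564-141547339 read 4.57 on F and -4.38 on R in Il18+/+, and 4.21 and -4.83 in Il18-/-, a difference of 8.96 log2 units on the first array and 9.04 on the second. It rested on 1 probe per strand. chr11:22681800-22707775, whose R strand is among the brightest of all, read -2.32 on F and 6.43 on R in Il18+/+, and -2.42 and 6.53 in Il18-/-.

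More probes stood behind the next regions. In chr3:146629425-146649125 the F strand read 3.69 and 3.76 in Il18+/+ and Il18-/- and the R strand -4.53 and -4.34. Its 4 F probes lay between 2.94 and 4.42 and its 5 R probes between -7.12 and -3.26, so the strands did not overlap. A shorter region inside it, chr3:146645022-146646977 (F), had 3 more probes at a mean of 3.87 and 3.93. chr4:136856064-136877219 was the mirror image, with R at 2.63 and 2.76 and F at -4.74 and -5.28. Its 5 R probes lay between 1.85 and 4.36, and its 5 F probes between -7.18 and -3.03. In these 2 regions the difference between strands was larger than the whole range of probes within either strand.

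Another 4 regions completed the 8 largest so ranked, at 6.96 to 7.58 log2 units, and each had 1 probe on its brighter strand. In chr5:20457725-20477550 R read 3.60 and 3.76 in Il18+/+ and Il18-/-, against -3.84 and -3.96 on F. In chr16:32309935-32328234 R read 2.40 on both arrays, against -4.89 and -5.23 over 5 F probes. In chr2:167085700-167117795 R read 4.63 and 4.77, against -2.21 and -2.35 over 2 F probes. R was thus the brighter strand in these 3. F was brighter in chr11:35805295-35817263, with 3.50 and 3.69 against -3.46 and -3.26 on R.

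Where 1 strand was not well above background, the difference is a lower bound, set against the lowest signal that counted as above background on each array or the dim strand's own signal if higher. In chr3:9401052-9415202 the R strand, at 0.86 and 0.87, was at least 84.0-fold higher than F. In chr8:73645975-73696275 the F strand was at least 71.8-fold higher than R, on 1 F probe. In chr17:95255725-95272425 the R strand, at 0.13 and 0.05, was at least 49.2-fold higher over 5 probes, which lay between -0.93 and 1.84, while the 4 F probes lay between -7.40 and -6.40. The R strands of chr13:65338067-65365992 and chr13:74568375-74601000 were at least 36.0-fold and 25.85-fold higher. Of these 5, chr17:95255725-95272425 has the most probes on both sides.

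Strands that were even on both arrays, within 1.5-fold, were found in 106 of the 717 regions. The brightest was chr17:39960567-39992817, at 2.94 on F and 2.97 on R in Il18+/+, and at 2.95 and 3.07 in Il18-/-. All 9 probes were high, between 1.66 and 4.39 on F and between 2.04 and 3.84 on R. Shorter regions inside it were also bright on both sides: chr17:39982023-39983277 (F) read 4.82 and 4.59 and chr17:39983902-39985688 (F) 4.14 and 4.16, while chr17:39979941-39981793 (R) read 2.13 and 2.21. This region therefore held strong signal on either strand within a short distance. Even means did not always come with even probes. In chr2:168804720-168854970 the means differed by 0.20, yet its 3 R probes ran from -7.31 to 5.19. In chr7:16584852-16657252 the 10 F probes ran from -7.63 to 3.94. In chr6:47687025-47728525 the 4 F probes, averaged over both arrays, ran from -4.70 to 3.39. In chr2:176784125-177183100 the probes were close as well as the means, the 2 F probes at -2.17 and -1.25 and the R probe at -1.51.

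In the median, the balance of strands moved little between the genotypes. In the 711 regions measured on both strands and arrays, the change of F less the change of R had a median of -0.01, with 90% of the values between -0.61 and 0.62. This measure compares each probe only with itself, so differences between probes drop out. The balance shifted by 1.5-fold or more in 83 regions (11.7%) and by 2-fold or more in 15. Single region strands passed 1.5-fold in 2.44% (higher) and 2.88% (lower), with 90% of their values between -0.49 and 0.41. A like share over other features was not computed. The counts in this paragraph are therefore not read as a result about the regions. The changes of F and R were nearly unrelated, with Pearson's r of 0.06 and Spearman's rho of 0.03. F alone passed 1.5-fold in 29 regions and R alone in 26. Both passed in the same direction in 4 regions, and in opposite directions in 1.

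Values follow for 4 of these 5 regions. In chr12:110944403-110988678 both strands were lower in Il18-/-, F by 0.66 over 10 measured probes and R by 0.64 over 6. In chr12:12768528-12849976 both were higher, by 0.63 and 0.66. In chr5:35893909-35899497 both were higher as well, by 0.70 and 0.69. In chr2:127988295-128194920 they went apart, F higher by 0.71 and R lower by 0.60. These regions were singled out after their values were seen.

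Levels differed little between chromosomes. The median over both arrays ran from -5.60 on chromosome 9 to -4.56 on chromosome 19, a span of 1.05, while the middle 50% of strands within a chromosome covered 3.01 log2 units in the median. Chromosome 19 also had the largest share detected on both arrays, 82.8%, and chromosome 10 the smallest, 65.9%. The order was nearly the same on both arrays, with a Spearman's rho of 0.94 over 20 chromosomes, which share the same probes. When dim strands were left out, chromosome 7 was highest in place of 19, and with the brightest probe of each strand it was chromosome 14, so neighbours in this order are not separated. The median difference between genotypes ran from -0.08 to 0.01, with no chromosome set apart.

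**Figure D3:**
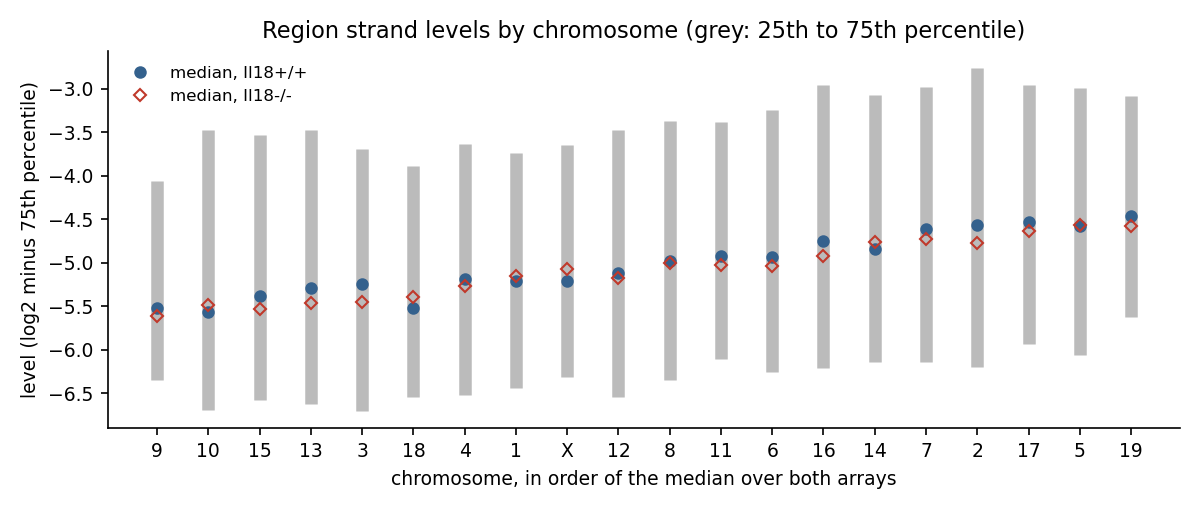
Median level of region strands on each chromosome in Il18+/+ (filled) and Il18-/- (open), ordered by the median over both arrays, with grey bars from the 25th to the 75th percentile. The medians climb from -5.60 to -4.56, and the grey bars overlap throughout.

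Detection differed with length more than level did. Among the shortest 25% of region strands, up to 1758 bases, 70.5% were detected in Il18+/+, and among the longest 25%, from 25890 bases, 82.3%. The share of single probes above background was nearly flat, 50.7% and 53.6%. Longer regions had more probes, with a Spearman's rho of 0.29 between length and probe number. The level itself followed length with a rho of 0.06, the brightest probe with 0.15, and the difference between strands with -0.05. Longer regions were more uneven inside. The SD between probes of a strand had a rho of 0.20 with length, and its median rose from 1.07 in the shortest group to 1.63 in the longest.

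Overlapping regions gave a second view of the strands. In 1390 overlapping pairs on the same strand, the levels had a Pearson's r of 0.34, and in 1351 pairs on opposite strands 0.15. For the difference between genotypes these were 0.18 and -0.07. All of these are weak, and pairs share regions and arrays.

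Few region strands differed between the genotypes. Of the 4607 strands, 3402 were measured, having at least 1 probe well above background on both arrays, and their median difference, Il18-/- minus Il18+/+, was -0.04. At 1.5-fold or more, 83 were higher in Il18-/- (2.44%) and 98 lower (2.88%), beside 1.86% and 2.92% over all measured features. At 2-fold 17 were higher and 15 lower (0.441%), where all measured features gave 0.591% higher and 0.448% lower. Over all levels and probe numbers these shares lie near the background. Higher strands made up 45.9% of the calls, 64.6% with loess and 3.87% with scaling to spike-in controls, which put the median of all measured features at -0.31. With normexp the counts were 14 higher and 10 lower. The shares of region strands as reported lay further from those of other features at some matched levels and probe numbers. In the lowest 25% of strands by level, which held 96 of the 181 calls, 4.94% were higher and 6.35% lower, beside 4.71% and 9.91% of other features in the same range of level. In the next 25% the shares were 2.0% and 2.94%, beside 4.18% and 7.03%. With 1 measured probe, 3.97% of region strands were higher and 5.0% lower, beside 2.02% and 3.28% of other features. With 2 measured probes the shares were 2.72% and 2.07%, beside 0.673% and 1.23%. With 3 measured probes the shares were 0.679% and 1.36%, beside 0.212% and 0.849% of 471 other features. Strands with 3 or more measured probes passed 1.5-fold in 8 (higher) and 14 (lower) of 1270 cases.

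**Figure D4:**
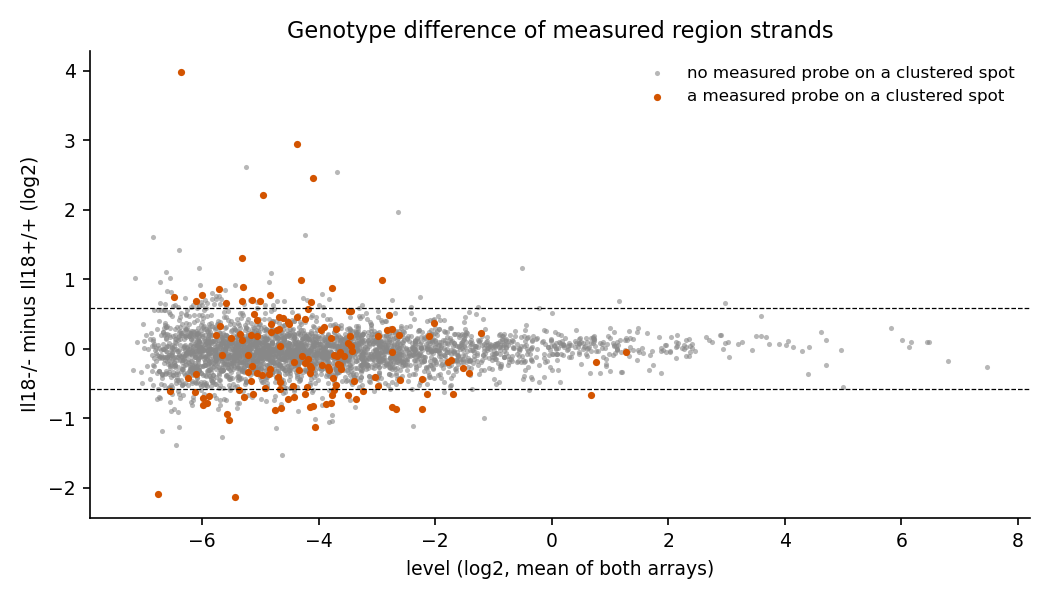
Difference between genotypes (Il18-/- minus Il18+/+, log2) against level (log2, mean of both arrays) for the 3402 measured region strands, with dashed lines at 1.5-fold. Orange points have a measured probe on a clustered spot. So do 53 of the 181 strands past the lines, beside 291 of the 1271 past 1.5-fold among all measured features. A clustered spot itself differs by 1.5-fold or more, so part of this overlap is built in. The scatter narrows as the level rises.

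The highest difference backed by several probes was in chr5:15146475-15170100 (F), 5.83-fold higher in Il18-/-. Its 3 measured probes read -2.87, -5.06 and -4.54 in Il18+/+ and -1.28, -1.88 and -1.67 in Il18-/-. Each of the 3 was thus higher in Il18-/-, by 1.59 to 3.18. A further probe was above background in Il18-/- only. At a lower coordinate, chr5:14943275-14944205 (F) was 3.91-fold higher, its 2 probes going from -4.33 to -1.78 and from -2.91 to -1.52.

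The regions around these 2 read otherwise. chr5:14921737-14978834 (F), which contains the second of them, read -1.48 in Il18+/+ and -2.02 in Il18-/-, so its 3 probes were lower by 0.44 to 0.69. chr5:14923900-15062725 (F) differed by 0.16. Beside the first, chr5:15176325-15223375 (F) was lower by 0.23. The higher signal was therefore limited to a few probes, while others of the same strand close by went the other way.

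The remaining 6 of the highest differences were under 2-fold. chr9:41422319-41425855 (F) rested on 3 probes, which read -2.53, -2.84 and -2.51 in Il18+/+ and were 0.75, 0.95 and 0.51 higher in Il18-/-, a 1.67-fold difference. Its neighbour chr9:41300137-41301556 (F) was 1.51-fold higher. chr15:82037381-82048125 (F) was 1.73-fold higher over 4 measured probes and chr13:62701350-62715650 (F) 1.66-fold over 3. chr10:94900849-94928059 (F), chr4:116790373-116797823 (R) and chr2:127988295-128194920 (F) had 2 measured probes each and were 1.94-fold, 1.63-fold and 1.63-fold higher. With dim probes included, the differences of these 3 were -0.032, 0.097 and 0.092, so none of the 3 then passed 1.5-fold.

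On the lower side, chr14:49288962-49413023 (F) was 2.90-fold lower in Il18-/-. Its 2 measured probes went from -2.62 to -4.36 and from -2.72 to -4.06. A region inside it on the same strand, chr14:49314574-49358174 (F), differed by 0.05 on its 1 measured probe. chr5:152006587-152008784 (R) was 2.01-fold lower, from -0.66 to -1.67, and its 3 probes agreed within 0.90 to 1.08. The next region on that strand, chr5:152029557-152030218 (R), was 2.07-fold lower on its 1 probe. This pair is the clearest case of neighbours lower together at 2-fold.

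The other 6 lowest strands had 2 measured probes each and differences of 1.60-fold to 1.74-fold. Over the measured probes, chr2:155289631-155292565 (R) went from -4.11 in Il18+/+ to -4.90 in Il18-/-. chr2:104398943-104412968 (R) went from -3.29 to -4.05. chr8:49858771-49859010 (R) went from -3.89 to -4.65. These 3 are on R, and the last 3 are on F. chr17:84355587-84356863 (F) went from -3.92 to -4.66. chr10:72559397-72946868 (F) went from -3.97 to -4.67. chrX:93154123-93164481 (F) went from -3.89 to -4.57. Of the 16 strands named for their difference, 4 stayed past 1.5-fold under all alternatives that gave a value. They were the 2 of chromosome 5 that were highest, chr14:49288962-49413023 (F) and chr5:152006587-152008784 (R).

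A stretch of chromosome 12 held the largest run of neighbours lower at 1.5-fold. Between 110738120 and 111080561 the array has 18 region strands, of which 17 were measured, and 16 of these were lower in Il18-/-. The median was -0.38, and 4 passed 1.5-fold. chr12:110842154-110883594 (F) read 0.34 in Il18-/-, 0.66 below Il18+/+, and chr12:110870903-110891628 (F) from -2.32 to -3.16. In chr12:110944403-110988678 the F strand went from -1.37 to -2.02 over 10 measured probes and the R strand from -3.34 to -3.98 over 6. The exception was chr12:110738120-110769295 (F), at the edge of the stretch, which was higher by 0.92 on 1 measured probe.

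Both strands were lower on balance. The 12 measured F strands had a median of -0.40 and 11 were lower, and the 5 R strands a median of -0.16 with all 5 lower. Counted by probe, 51 of 58 measured probes were lower. Without the 7 that lay on clustered spots, 44 of 51 were. Overlapping regions share signal, so these are not independent counts, and the stretch was picked for its calls. Over the alternatives of scaling, background and probe choice, between 13 and 16 of 17 strands were lower, 16 of 18 with dim probes included, and 8 of 8 when every probe had to be above background. By normexp 0 passed 1.5-fold. Meg3 and Mirg, read by other probes matched to these genes, were lower by 0.28 and 0.37. The regions were not tied to genes, so these probes may read the same RNAs as the stretch and are no separate support.

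**Figure D5:**
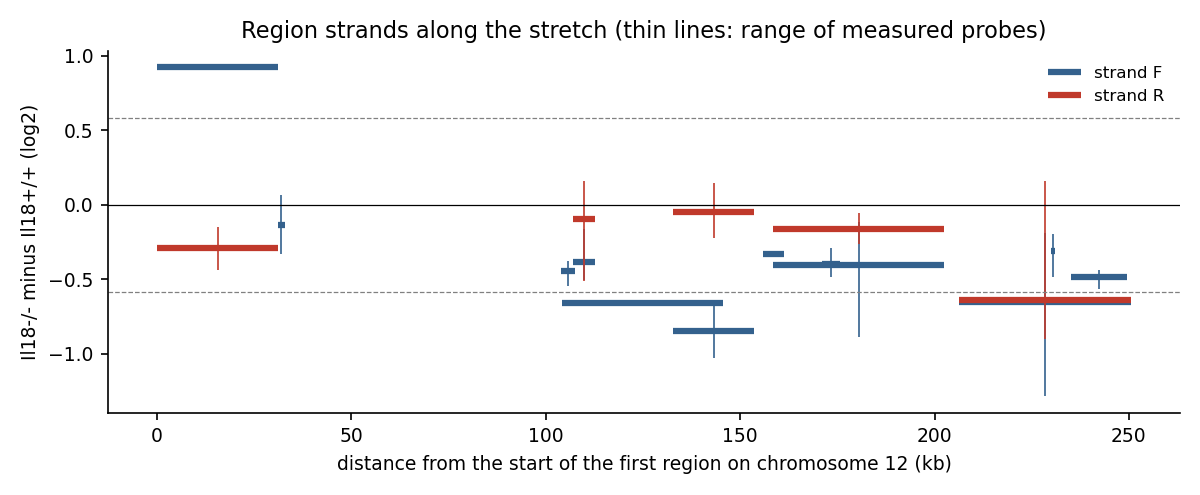
Difference between genotypes (Il18-/- minus Il18+/+, log2) along the stretch of chromosome 12, each thick bar a region strand (F blue, R red) and each thin line the range of its measured probes, with dashed lines at 1.5-fold. The x axis is the distance in kb from the start of the first region. All bars lie below 0 but the first F strand, at 0.92.

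Called strands with a neighbour called in the same direction were few across the genome. A higher neighbour within 500 kb was seen for 13.3% of 60 higher strands with a neighbour and for 9.45% of strands not called. A lower neighbour was seen for 16.4% of 73 lower strands and for 11.2% of those not called. The chromosome 12 stretch supplies 4 of the 12 lower strands with a lower neighbour.

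Position on the array was checked, since spots close together can share a local difference in signal. A spot was counted as clustered when it differed by 1.5-fold or more and at least 2 of its 18 nearest spots differed by 2-fold or more in the same direction. This was true of 722 region spots (4.46%), beside 3.10% of all spots and 2.59% of the other spots. Of the 722, 575 were not above background on both arrays. Among spots above background on both arrays, with only such spots as neighbours, the shares were 0.380% and 0.180%. Region spots above background on both arrays were also read in 3 bands of the array by row, and 3 by column. Their median difference ran from -0.04 to -0.02, so no broad gradient of the median was seen. The share of them past 1.5-fold ran from 6.06% to 8.45% by row and from 6.4% to 7.85% by column. For other spots it ran from 4.59% to 5.05% and from 4.66% to 4.96%.

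Strands with a measured probe on a clustered spot are given apart. In chr2:150217425-150266600 (F) 1 probe went from -3.90 to 0.08, 15.8-fold higher, while its other 4 probes were not above background. In chr15:74461988-74466728 (R) 1 probe was 7.69-fold higher and in chr13:114486580-114532455 (F) 5.51-fold. In chr11:5387350-5403150 (F) 1 probe was 4.38-fold lower and in chr15:59966962-59972812 (F) 4.25-fold. Each rests on 1 measured probe.

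Some strands were detected on 1 array only. Outside chromosome 18, 13 of the 179 detected in Il18+/+ only had a bound of at least 2-fold, and 19 of the 74 detected in Il18-/- only. Of these, 8 and 14 had a probe on a clustered spot. The share over all features at this bound was not computed, so the counts are not read as a result about the regions. chr1:100481057-100494471 (F) was at least 34.9-fold higher in Il18-/-, and chr9:78373792-78374303 (R), chrX:7559666-7560283 (R), chr10:97196521-97207471 (R) and chr3:30107995-30108595 (R) at least 9.79-fold, 7.29-fold, 6.52-fold and 6.24-fold. In the other direction chr13:23488256-23488626 (F) was at least 3.71-fold higher in Il18+/+, chr2:84344350-84370075 (F) 2.99-fold, chr15:102926581-102932542 (R) 2.54-fold, chr16:64758224-64765674 (F) 2.49-fold and chr17:27445260-27455641 (R) 2.43-fold. These are the 5 largest bounds in each direction, and each strand has a probe on a clustered spot and was detected by 1 probe.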

How the data were processed

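Both arrays are 1-colour Agilent arrays of mouse transcripts. The deposited intensity values come from the authors' run of Agilent Feature Extraction (version 10.10.1.1 in the submitters' processing notes), and the build is mm9, per the file headers. The processed signal is background-subtracted within each array. The value table that the authors deposited is that intensity times 1 constant per array (2.05 and 1.92), on a linear scale, and was an alternative only. Control spots and outlier spots (124 in Il18+/+, 177 in Il18-/-) were left out. Signals were set to log2 less the 75th percentile of the array, spots of a probe were averaged, and probes of a strand were averaged. A strand was detected if 1 probe was well above background, and differences used probes above background on both arrays. Lists and marker genes were matched by accession to RefSeq genes of GRCm38.p6.

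No test was made with 1 array per genotype. Members, lists and the rule for named regions were chosen with earlier results of these data known. The rule named the 10 brightest strands, the 8 largest strand differences, 5 strands of 1-sided detection, 5 even regions, up to 8 genotype differences per direction with several probes on 1 side and no clustered spot, up to 5 with a clustered spot, up to 5 per direction detected on 1 array, and the longest and shortest. Neighbouring regions, overlaps, the 25-base spacing and the chromosome 12 stretch were examined after the values were seen. Regions on chromosome 18 are counted but were left out of the rankings behind the named regions. Alternatives were quantile, median, loess and spike-in scaling, normexp (offset 50), raw signal, the deposited values, other filters on dim probes, the brightest or median probe, and no clustered spots. The calculations were tested on simulated data. Calculations ran in R 4.3.3 with limma 3.58.1, and in Python 3.11.15 with scipy 1.17.1, pandas 2.3.3, numpy 2.4.6 and matplotlib 3.10.9.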

Additional observations from a re-analysis of the deposited data

Results flagged for a closer look

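A further 13 probes were named by a region of the same kind but with no strand letter, and were used in no comparison. They lie in 3 regions, and 8 of them were well above background on both arrays, whereas 4 of 308 negative control spots were on at least 1 array. Of all probes, 67.2% were well above background in Il18+/+ and 65.4% in Il18-/-. For probes of the regions with a strand letter these shares were 53.4% and 50.8%. Detection of such probes is thus common on these arrays. What drew attention to them is this signal in data outside the comparisons. The 3 probes of the region on chromosome 3 read 1.23, -1.19 and -1.18 in Il18+/+, and were lower in Il18-/- by 0.14, 0.38 and 0.45. On chromosome 17, 4 of 5 probes were above background on both arrays, and on chromosome 6, 1 of 5, at -1.69 and -2.34.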

How the results depend on the processing

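No paired analysis was possible because each genotype has 1 sample and the labels carry no replicate numbers. Detection on both arrays, 74.2% of region strands, was 50% when at least 50% of a strand's probes had to pass and 90.7% with the software's weaker criterion of a positive and significant signal. The share of regions with strands 2-fold apart, 62.5%, was 35.3% with normexp, 40.9% with raw signal, 68.5% with the brightest probe and 75% where every probe passed (72 regions). The span of chromosome medians stayed within 1.5 times of 1.05. The correlation of length with level, 0.06, was -0.039 in detected strands, 0.15 with the brightest probe and 0.17 with the higher strand of a region. The counts at 1.5-fold, 83 higher and 98 lower, became 23 and 572 with spike-in scaling, which moves the median of all features by -0.31. They became 14 and 10 with normexp, 19 and 20 with raw signal, 17 and 33 where every probe passed, and 172 and 336 with no filter. The brightest probe gave 128 higher and loess 64 lower. Higher calls were 45.9% of all calls as reported, 58.5% with quantile, 56.0% with median, 64.6% with loess, 3.87% with spike-in scaling and 58.3% with normexp. Clustered region spots, 4.46%, were 1.88% with 3 of 18 neighbours, 2.43% at 2-fold throughout, 0.420% with raw signal and, an alternative chosen after seeing the data, 0.380% among measured spots. Of 348 values of named strands under alternatives, 323 moved by less than 1.5-fold and 24 by more. The other 1, chr10:94900849-94928059 (F), is past 1.5-fold as reported and changed sign, at -0.032 without a filter. Part of the 323 could not move. The deposited values differ by 1 constant per array, which the percentile removes. Strands with no measured probe on a clustered spot keep their value when such spots are left out. Where every probe had to pass, a strand kept its value or gave none. The cause of these changes was not tested. Signal near background limits most regions, and differences between probes limit the comparison of F and R levels.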
